A study of Mus musculus with 25 samples.

Results

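The 39 Hox genes of the 4 mouse Hox clusters were examined in laser captured compartments of the forming palate. They were taken as every row of the expression table whose symbol is Hoxa, Hoxb, Hoxc or Hoxd followed by a number, which gave 39 of 37406 rows: 11 from the Hoxa, 10 from the Hoxb, 9 from the Hoxc and 9 from the Hoxd cluster. The tissue was wild type CD1 mouse palatal shelf at E14.5, with no transgene, mutation or treatment in any group. Anterior and posterior palate were each cut into medial and lateral compartments and, separately, into oral and nasal ones, which gave 8 compartments and 25 RNA-Seq libraries, 3 per compartment and 4 for anterior nasal. The medial and lateral cuts and the oral and nasal cuts divide the same shelf, and the labels do not tie libraries to embryos. Libraries may therefore share embryos, and p-values measure the spread between these libraries only.

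Hox genes encode homeodomain transcription factors that set position along the head to tail axis. They lie in 4 clusters in which gene order mirrors the order of expression along that axis, with low-numbered paralogue groups in general expressed farther forward than high-numbered ones. The palatal shelves grow from the maxillary part of the first pharyngeal arch, whose neural crest is known for lacking Hox expression, in contrast to the crest of the arches behind it. Hoxa2, the member that reaches farthest forward in neural crest, specifies the second arch, and its forced expression in first arch crest is known to disturb the jaw skeleton.

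Values are RPKM, reads scaled to transcript length and to sequencing depth, so that levels can be compared between genes. The implied depth, worked out from the smallest steps between values, was 1.64 to 6.56 M reads per library, and 1 read on a transcript of 2000 bases was worth 0.0763 to 0.305 RPKM. The scale took each step as 1 base of a read of 50 bases. Of 3757 genes used for it, 523 had a GENCODE transcript of the implied length. The scale was chosen by such matches in these same genes, so their number is not a check of it. The study states a larger average number of reads per sample, and it removed duplicate and multiply aligned reads. The column of anterior medial replicate 2 does not name its unit and was read as RPKM, and the steps between its values gave a depth of 3.28 M reads, within the range of the others. Sequencing runs are lettered A to H. The 9 libraries of runs A to D had 18027 to 20605 genes above 0 and the 16 of runs E to H had 12935 to 17148, a split made after these values were seen. One library stood apart at the low end, posterior medial replicate 2, with 12935 genes above 0. The palate mesenchyme markers (Col1a1, Prrx1, Twist1, Osr2 and 5 others) had a summed level of 593 to 1003 RPKM, with all 9 genes above 0 in every library.

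Most Hox genes were listed at 0 in most libraries. Of the 975 values (39 genes in 25 libraries), 682 or 69.9% were 0, against 53.6% of the values of all genes in the table. No member was at 0 in all 25 libraries, where 22399 of the 37406 genes were above 0 in at least 1. Hoxc8 was the 1 member above 0 in every library, 7 members were above 0 in at least 13 libraries, and 5 (Hoxa6, Hoxb2, Hoxc11, Hoxd11 and Hoxd12) were above 0 in exactly 1. The median over members of the mean level was 0.0732 RPKM, against 0.140 RPKM over all genes. Only 2 members averaged at least 1 RPKM, Hoxc8 at 3.38 and Hoxd8 at 2.17. A mean of at least 0.1 and under 0.5 RPKM was found for 13 members and a mean under 0.1 RPKM for 23, and Hoxb3 averaged 0.597 RPKM. Of the summed level of all members, Hoxc8 made up 34.7% and Hoxd8 22.3%. Their order turned without the 3 libraries of run D, where Hoxc8 averaged 1.46 RPKM (21.9% of the sum) and Hoxd8 1.92 RPKM (29.0%). A share of 30.9% of all genes had a higher mean than Hoxc8 and 33.7% a higher mean than Hoxd8. Set against the label of a tissue free of Hox expression, each of the 25 libraries had at least 3 members above 0. On average 53.0% of members were above 0 per library in runs A to D and 17.1% in runs E to H. Of other genes with a mean under 0.5 RPKM and above 0 in at least 1 library, 54.1% and 21.6% were. These sets are not alike, since the members were not limited by level. The 3 members with a mean of at least 0.5 RPKM, Hoxc8, Hoxd8 and Hoxb3, are counted in the member shares and raise them. At this depth a value of 0 means that no read was counted, and low expression below that limit was not detectable.

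**Figure D1:**
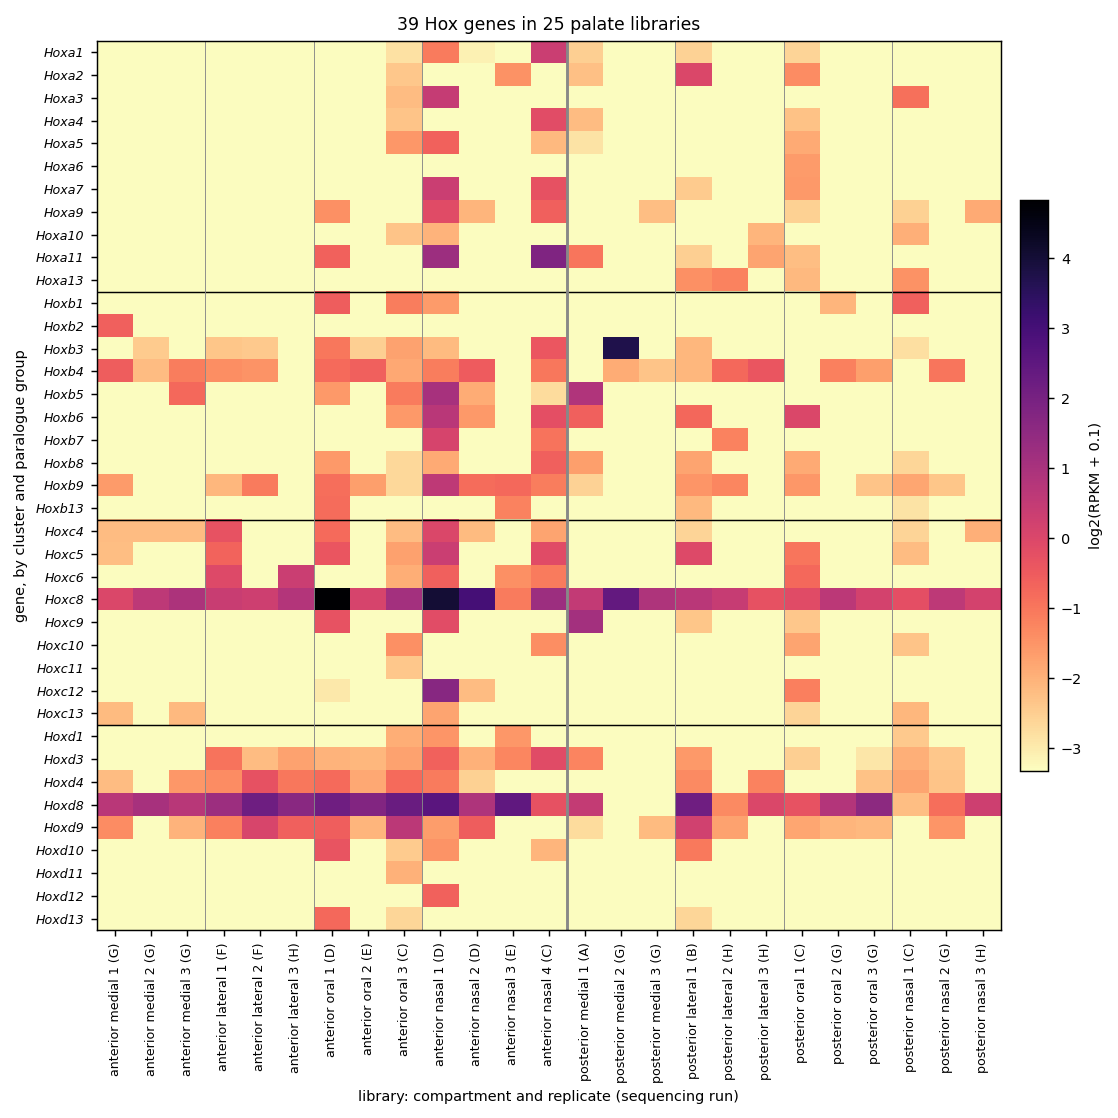
Levels of the 39 Hox genes (rows, by cluster and paralogue group) in the 25 libraries (columns, with the sequencing run in brackets), as log2(RPKM + 0.1); the palest colour is 0 RPKM, the thick line parts anterior from posterior libraries and thin lines part compartments. Hoxc8 and Hoxd8 form the only nearly continuous bands, and the libraries with the most other coloured cells are of runs A to D.

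Both leading members carry the same paralogue number, 8, in different clusters. Read numbers were estimated from the steps in the values by the exon length that gave the most whole numbers, to within 0.02 of a read. For Hoxc8 a fitted length of 2369 bases gave whole numbers in 25 of 25 libraries, 2 to 110 reads each and 532 in all. For Hoxd8 a fitted length of 1424 bases gave whole numbers in 18 of the 23 libraries above 0, and 266.3 read equivalents in all, with 44 in the library with the most. The fitted lengths are not annotated ones, since the longest GENCODE transcript has 2223 bases for Hoxc8 and 2634 for Hoxd8, and the read numbers scale with them.

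The clusters were low between active neighbours on both sides for 3 of the 4 clusters. Beside the Hoxd cluster (chr2:74506367-74603199; all positions are those of the table, for which the submitters' processing notes name mm9), Mtx2, a mitochondrial outer membrane protein, averaged 42.1 RPKM, Lnp, which shapes the endoplasmic reticulum, 15.9 and Hnrnpa3, an RNA binding protein, 149. Evx2, a homeobox gene that borders Hoxd13, averaged 0.0238 RPKM. Beside the Hoxc cluster (chr15:102751562-102867283), Calcoco1 averaged 23.1, Smug1 5.64 and Cbx5, a heterochromatin protein, 55.5 RPKM. Beside the Hoxa cluster (chr6:52105366-52210874), Skap2 averaged 6.35 and Hibadh 12.8 RPKM, while Evx1, which borders Hoxa13, averaged 0.0137 RPKM. The Hoxb cluster (chr11:96055675-96229567) differed in that its 3 listed neighbours Calcoco2, Ttll6 and Skap1 were themselves low, between 0.115 and 0.275 RPKM. Between the outermost Hox genes of the clusters lie 20 other rows, and none of them averaged 1 RPKM. The highest, 1700109F18Rik (chr2:74548101-74554187, overlapping the Hoxd3 row), averaged 0.324 RPKM and was above 0 in 15 libraries.

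**Figure D2:**
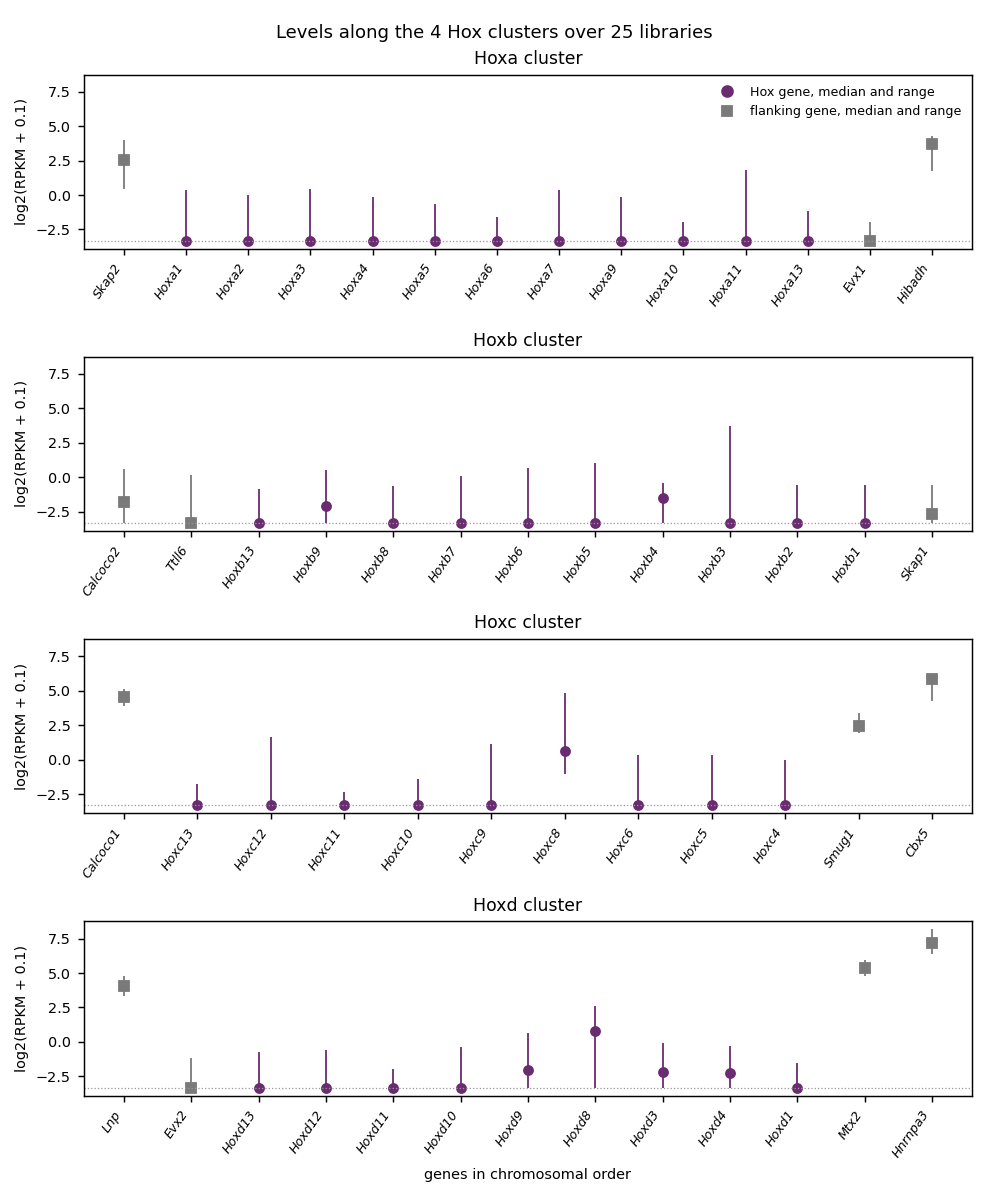
Median (symbol) and range (line) over the 25 libraries of each Hox gene (circles) and of listed flanking genes (squares), in chromosomal order and not to scale, as log2(RPKM + 0.1); the dotted line is 0 RPKM. Medians above 0 are seen for Hoxb4, Hoxb9, Hoxc8, Hoxd3, Hoxd4, Hoxd8 and Hoxd9, with Hoxc8 and Hoxd8 above the others and below the active flanking genes of the Hoxa, Hoxc and Hoxd clusters.

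The members above 0 in at least 13 libraries were Hoxb4, Hoxb9, Hoxc8, Hoxd3, Hoxd4, Hoxd8 and Hoxd9, so 4 of the 7 lie next to each other in the Hoxd cluster (the genes other than Hoxc8 and Hoxd8 are named after their values were seen). By paralogue group, values above 0 made up 34.3% for the 12 members of groups 1 to 4, 36.0% for the 11 of groups 5 to 8 and 22.8% for the 16 of groups 9 to 13. The median of the member means was 0.0741, 0.156 and 0.0395 RPKM in the same order. Hoxa2 was above 0 in 5 libraries, at 0.0907 RPKM in anterior oral 3, 0.264 in anterior nasal 3, 0.109 in posterior medial 1, 0.902 in posterior lateral 1 and 0.285 in posterior oral 1. Those 5 values stand for about 15 reads. Hoxa11, which patterns the forearm, reached 2.27 RPKM in anterior nasal 1 and 3.40 in anterior nasal 4, and no more than 0.544 in any of the other libraries.

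Several microRNA genes lie inside the clusters, and their mature sequences are given because they fall into the families that are known to target Hox transcripts. The sequences are from RefSeq (GRCm38.p6), 5′ to 3′, with the seed (bases 2 to 8) in capitals.
miR-10a-5p (chr11:96317186-96317208, plus strand): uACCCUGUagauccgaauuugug
miR-10b-5p (chr2:74726074-74726096, plus strand): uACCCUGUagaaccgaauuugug
miR-196a-5p (chr11:96265187-96265208 and chr15:102973365-102973386, plus strand): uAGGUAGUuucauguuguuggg
miR-196b-5p (chr6:52230129-52230150, minus strand): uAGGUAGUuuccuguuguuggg
The pair from Mir10a and Mir10b shares 1 seed and the miR-196 genes share another. Mir10b, within the span of the Hoxd4 row, was above 0 in 5 libraries with at most 3.33 RPKM and averaged 0.228 RPKM, and Mir10a, beside Hoxb4, was above 0 in 1 library at 0.827 RPKM. Mir196a-1, Mir196a-2, Mir196b and Mir615 were listed at 0 in all 25 libraries. These rows are hairpins and were read with a method for long RNA, so they do not measure the mature microRNAs. The antisense transcript Hoxa11as was above 0 in 3 libraries and averaged 0.0333 RPKM. The strand setting of the counting is not given in the sources used here, so reads from a Hox gene and from an overlapping antisense transcript could not be told apart.

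The number of Hox genes above 0 differed widely between libraries, from 3 in posterior medial 2 to 29 in anterior nasal 1. It was 13 to 29 in the 9 libraries of runs A to D and 3 to 11 in the 16 of runs E to H, so that these sets of libraries, which were split after the values were seen, did not overlap. The implied depth had a median of 5.45 M reads in runs A to D and 3.12 M in runs E to H. Every library of runs A to C, at 4.07 M or more, was deeper than every library of runs E to H. The 3 libraries of run D, at 1.64 to 3.20 M, did not follow that order. Anterior oral 1 was the shallowest at 1.64 M implied reads and had 20 members above 0, and anterior nasal 1 had 29 at 2.16 M. The deepest library of runs E to H, posterior medial 3, had 4 at 3.86 M. The part of depth in these numbers was not tested. Other low genes moved with the Hox genes. Of the genes outside the clusters with a mean under 0.5 RPKM, 42.1% to 78.4% were above 0 in runs A to D and 4.28% to 26.9% in runs E to H. Of the 39 members, 33 had their highest value in a library of runs A to D, 15 of them in anterior nasal 1. In the 16 libraries of runs E to H, 16 members were at 0 throughout, and 1 member, Hoxb2, was at 0 throughout runs A to D. Comparisons without runs A to D, without run D, with run as a covariate and within single runs are given below.

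**Figure D3:**
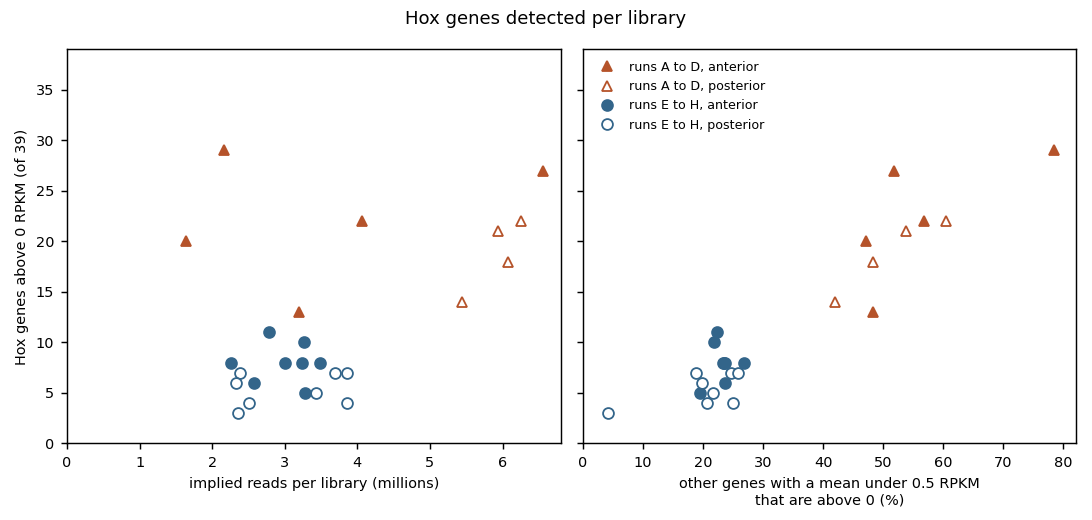
Number of the 39 Hox genes above 0 RPKM in each library against the implied depth (M reads) (left) and against the percentage of other genes with a mean under 0.5 RPKM that were above 0 (right); triangles are runs A to D, circles runs E to H, filled symbols anterior and open symbols posterior. All triangles lie at 13 or more and all circles at 11 or fewer, and in the right plot the triangles also lie to the right of the circles.

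By run, the number of Hox genes above 0 was 18 to 27 in the 4 libraries of run C, 13 to 29 in the 3 of run D, 3 to 10 in the 8 of run G and 4 to 7 in the 4 of run H. Anterior medial had 5 to 10 members above 0 and anterior lateral 6 to 11. Anterior oral had 8 to 27, and anterior nasal had 8 to 29. In the posterior palate the medial compartment had 3 to 14, the lateral 6 to 21, the oral 5 to 22 and the nasal 4 to 18. The ranges of all 8 compartments overlapped. The anterior medial and anterior lateral compartments were the ones with no library of runs A to D, and they also had the lowest upper ends.

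Hoxc8 (gene ID 15426, chr15:102820970-102824685), known for specifying trunk vertebrae and spinal motor neurons, had the highest mean of the members over all 25 libraries, which the 3 libraries of run D carried. Its median, 1.42 RPKM, lay below the 1.64 RPKM of Hoxd8. It was at 0.904, 1.42 and 1.82 RPKM in anterior medial, 1.21, 1.12 and 1.64 in anterior lateral, 28.3, 0.968 and 2.06 in anterior oral, and 16.2, 7.91, 0.374 and 2.28 in anterior nasal. In the posterior palate it was 1.32, 5.21 and 1.75 RPKM in posterior medial, 1.49, 1.24 and 0.725 in posterior lateral, 0.810, 1.48 and 1.03 in posterior oral and 0.765, 1.42 and 1.01 in posterior nasal. The 3 highest values, 28.3, 16.2 and 7.91 RPKM, were the 3 libraries of run D, and the next was posterior medial 2. The other 21 libraries lay between 0.374 and 2.28 RPKM, and every compartment overlapped every other. Means were 5.10 ± 8.22 RPKM (SD, n = 13) in the anterior and 1.52 ± 1.21 (SD, n = 12) in the posterior palate. On the log2(RPKM + 0.1) scale the posterior minus anterior difference was −0.76 (SE 0.51), with a limma adjusted p of 0.551. Without the 3 libraries of run D the difference was 0.05 and its direction turned, with an adjusted p of 0.979.

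Among 14023 genes above 0 in at least 20 libraries and with a mean of at least 1 RPKM, the 5 with the pattern most like Hoxc8 were Tubal3, Sim1, Gm5615, Mrgpre and Saa4. Pearson's r of log2(RPKM + 0.1) over the 25 libraries was 0.961 for Tubal3, 0.956 for Sim1, 0.955 for Gm5615, 0.951 for Mrgpre and 0.942 for Saa4. These points share library, run and amplification. The libraries of run D held the high values of these genes too, with 5.25 to 19.5 RPKM of Tubal3 against a median of 0.812 in the other 22 libraries. Without run D, r lay between 0.741 for Saa4 and 0.848 for Gm5615.

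Hoxd8 (gene ID 15437, chr2:74543546-74545364), a member active in trunk mesoderm and kidney, was lower in the posterior than in the anterior palate and was the 1 member called there. It was 1.5, 1.93 and 1.52 RPKM in anterior medial, 2.27, 4.44 and 3.00 in anterior lateral, 4.28, 3.25 and 4.71 in anterior oral, and 5.84, 1.76, 5.36 and 0.728 in anterior nasal. In the posterior palate it was 1.29, 0 and 0 RPKM in posterior medial, 4.26, 0.295 and 0.905 in posterior lateral, 0.699, 1.64 and 2.86 in posterior oral and 0.116, 0.452 and 1.12 in posterior nasal. All 13 anterior libraries were above 0, 10 of the 12 posterior libraries were, and the groups overlapped. Posterior lateral 1 stood above the other posterior libraries. It was the 1 library of run B and had 21 members above 0. It also had the highest summed level of the skeletal muscle markers, 94.4 RPKM. The next highest sum, 61.4 RPKM, was in anterior nasal 2, where Hoxd8 was at 1.76 RPKM. The part of run or of muscle cells in these Hoxd8 values was not tested. Anterior nasal 4 stood below the other anterior libraries. Means were 3.12 ± 1.66 RPKM (SD, n = 13) in the anterior and 1.14 ± 1.28 (SD, n = 12) in the posterior palate, and medians were 3.00 and 0.802 RPKM. The posterior minus anterior difference was −1.99 on the log2(RPKM + 0.1) scale (SE 0.53, limma adjusted p = 0.0413 over 21073 genes). In these bulk samples, fewer cells that express a gene and less RNA per cell cannot be told apart.

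**Figure D4:**
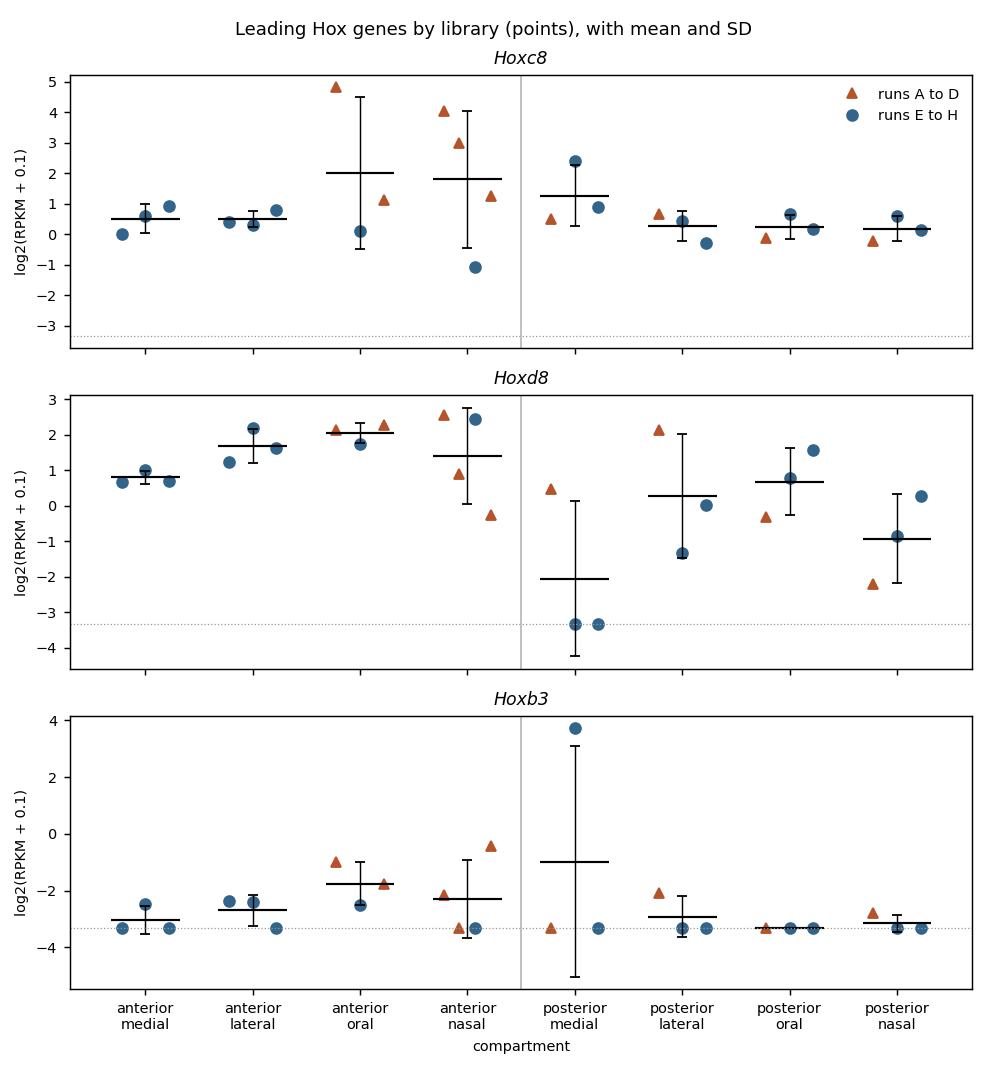
Hoxc8, Hoxd8 and Hoxb3 in each library by compartment, as log2(RPKM + 0.1); triangles are libraries of runs A to D, circles of runs E to H, black bars the mean with SD (n = 3, 4 for anterior nasal), and the dotted line 0 RPKM. The 3 highest Hoxc8 points are triangles, Hoxd8 lies above the dotted line in all anterior libraries and at it in 2 posterior medial libraries, and 1 posterior medial library holds the high Hoxb3 value of 13.04 RPKM.

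The sign of the Hoxd8 difference was the same in all 37 alternative fits, and the call was kept in 16 of them. Within runs that hold both regions the values were as follows. In run C the 2 anterior libraries were at 0.728 and 4.71 RPKM and the 2 posterior ones at 0.116 and 0.699. In run H the 1 anterior library was at 3.00 and the 3 posterior ones at 0.295 to 1.12. In run G the 3 anterior libraries were at 1.5 to 1.93 and the 5 posterior ones at 0 to 2.86, so that they overlapped. With the run as a covariate the difference was −2.74 (adjusted p = 0.0129). Without runs A to D it was −2.23 and missed the threshold (adjusted p = 0.105), and without run D it was −1.87 (adjusted p = 0.127). Of the 25 fits that leave out 1 library, 15 also missed it, with adjusted p up to 0.0776. These were the fits without any 1 of the 3 anterior lateral or 3 anterior oral libraries, anterior nasal 1 or 3, posterior medial 2 or 3, posterior lateral 2 or 3, posterior oral 1, and posterior nasal 1 or 2.

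In the same comparison 1 of 8 epithelial markers passed, Krt8, a keratin of simple epithelia and periderm, with −2.75 (adjusted p = 0.00235). The summed level of the list was 33.9 to 125 RPKM in the anterior and 15.6 to 116 in the posterior libraries, and the highest posterior sum apart from posterior medial 2 was 58.8 RPKM. The differences of all 8 markers were below 0 (median −0.74), and 3 had an unadjusted p under 0.05. No marker of the list was at 0 in every library. The part of the list in the Hoxd8 difference was not tested. Of the 7 hindbrain and spinal cord neural markers tested 0 were called, and the sum of that list was 0.792 to 8.61 RPKM in the anterior libraries and 0.374 to 34.9 in the posterior ones.

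The stretch upstream of Hoxd8 is shown because Hoxd8 was the called member. It comprises the 250 bases before the start site in RefSeq (GRCm38.p6, chr2:74704365-74704614, plus strand), with a match to CCAAT in capitals. This start site is not that of the tested Hoxd8 row. The shift between table and RefSeq positions was the same for Hoxd9, Hoxd3 and Hoxd4 but smaller for Hoxd8. The stretch therefore ends some way upstream of where the tested row begins.
Hoxd8: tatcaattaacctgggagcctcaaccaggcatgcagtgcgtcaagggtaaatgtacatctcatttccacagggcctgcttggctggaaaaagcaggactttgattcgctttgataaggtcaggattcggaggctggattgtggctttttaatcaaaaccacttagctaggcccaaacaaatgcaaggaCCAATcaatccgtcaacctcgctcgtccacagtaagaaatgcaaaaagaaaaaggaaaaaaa
Both strands were searched for CCAAT, for TATAAA, for TGATNNAT (the form bound by paired Pbx and Hox proteins) and for TGACAG (the form bound by Meis proteins). The Hoxd8 stretch held CCAAT and none of the other motifs, and 33.8% of 32851 promoter stretches of the same length held CCAAT. The shares for the others were 12.4% for TATAAA, 7.68% for TGATNNAT and 15.9% for TGACAG. Of 39 members 24 had an entry. CCAAT was held by 14 of these, TGATNNAT by 4, TATAAA by 4 and TGACAG by 2. The stretch of Hoxd9 held none, that of Hoxd3 held CCAAT, and that of Hoxd4 held CCAAT and TATAAA. G and C made up 44.4% of the Hoxd8 stretch and 65.2% of the Hoxd9 stretch. A match is a description of the letters only.

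Of the 39 members 34 were above 0 in at least 3 libraries, where 56.3% of all genes in the table were. These 34 could be tested between posterior and anterior palate, and the 5 seen in 1 library could not. Of the 34, 1 passed an adjusted p of 0.05, where 2.33% of the 21073 genes tested did. The 2 groups of libraries did not overlap for 0 of 34 members, where 0.138% of all genes did not overlap. At an unadjusted p under 0.05 there were 6 members, where 13.2% of all genes tested passed. These 6, named after their values were seen, were Hoxd8, Hoxc4 (−1.003, adjusted p = 0.148), Hoxc6 (−0.96), Hoxd4 (−0.88), Hoxd3 (−0.81) and Hoxa13 (0.59), and none but Hoxd8 passed the adjustment. The posterior values were lower in 5 of the 6, where 8.29% of all genes tested passed in that direction. Hoxa13, which patterns the limb tip and the hind end of the body, was above 0 in 4 posterior and in no anterior library, at no more than 0.338 RPKM. It could be tested only because of its posterior values, so its direction was fixed beforehand. The difference was below 0 for 30 of the 34 members, where it was below 0 for 59.2% of all genes tested, and its median was −0.30 for members and −0.08 for all genes. When each library was centred on its median, 27 of 34 members and 46.5% of all genes were below 0. After quantile normalization 22 of 34 members and 52.7% of all genes were below 0, and without the libraries of run D 21 of 30 members and 55.5%. The share of members below 0 was thus smaller under each of these settings. With run as a covariate it was 24 of 34 members and 57.2% of all genes, and without runs A to D 7 of 10 and 57.9%. Within run C alone it was 15 of 16 members and 49.2% of all genes, and within run G alone 6 of 7 and 57.1%.

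**Figure D5:**
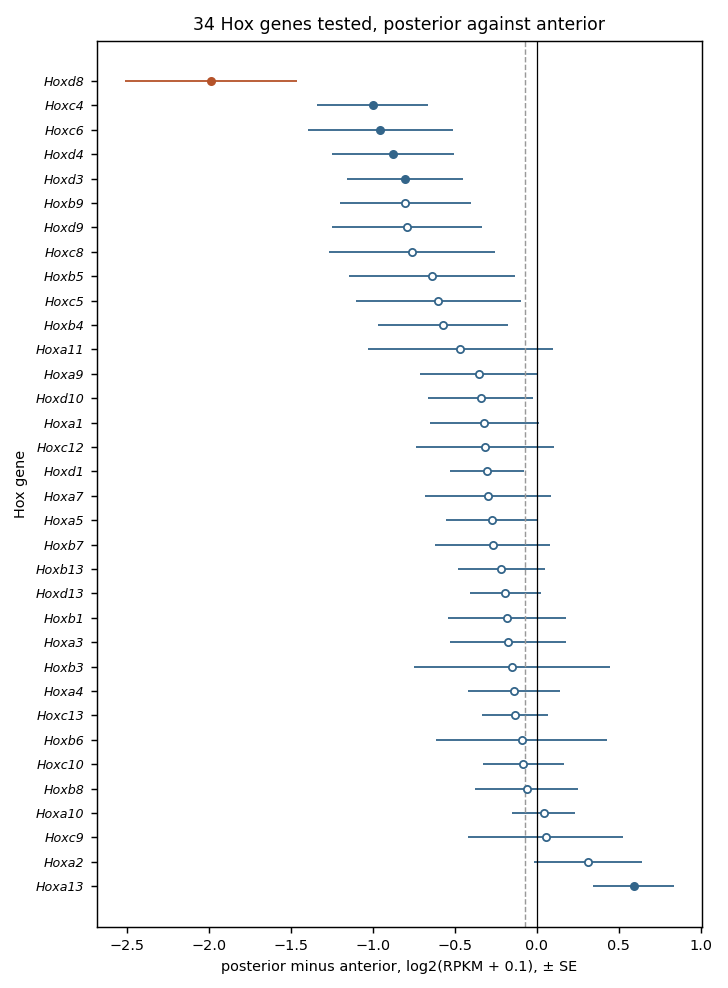
Posterior minus anterior difference of the 34 Hox genes tested, on the log2(RPKM + 0.1) scale, with the standard error as bars; filled symbols have an unadjusted p under 0.05, the 1 red symbol an adjusted p under 0.05, and the dashed line is the median of all genes tested (−0.08). Hoxd8 lies at −1.99 and the other 33 members between −1.003 and 0.59.

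The expression minimum that the study used for this comparison, 10 RPKM in 6 libraries, left no member to be tested. Over the 8 compartments as such, the limma F test called 0 of 34 members, where 3.13% of 21073 genes passed. At an unadjusted p under 0.05 there were 5 members, where 12.7% of genes passed. The smallest adjusted p was that of Hoxd8, at 0.126. With the run as a covariate Hoxd8 passed (adjusted p = 0.0409), as it did without runs A to D (adjusted p = 0.00704) and without posterior medial 1 (adjusted p = 0.0149). Hoxd3 also passed without posterior medial 1, and Hoxc6 passed without anterior lateral 2. Ordered by mean, Hoxd8 was highest in anterior oral (4.08 ± 0.75 RPKM, SD, n = 3), then in anterior nasal (3.42 ± 2.56, n = 4), anterior lateral (3.24 ± 1.11, n = 3), posterior lateral (1.82 ± 2.14, n = 3), posterior oral (1.73 ± 1.08, n = 3), anterior medial (1.65 ± 0.24, n = 3), posterior nasal (0.563 ± 0.511, n = 3) and posterior medial (0.430 ± 0.744, n = 3). Neighbours in that order overlapped in their library values, except anterior medial (1.5 to 1.93 RPKM) and posterior nasal (0.116 to 1.12 RPKM).

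In the anterior palate 4 neighbouring Hoxd genes had all lateral values above all medial values, and no member passed the adjusted threshold. Of 9 members tested 0 were called, where 1.23% of 16953 genes were. At an unadjusted p under 0.05 there were 4 of 9, where 13.7% of genes passed, and all 4 were these Hoxd genes, with lateral above medial, where 7.94% of genes passed in that direction. They were named after their values were seen. Hoxd3 was at 0 in all 3 medial libraries and at 0.421, 0.119 and 0.199 RPKM in the lateral ones. It could be tested only because of its lateral values (above 0 in at least 3 libraries was needed), so its lack of overlap was fixed beforehand. Hoxd4, expressed up to the hindbrain, was at 0.120, 0 and 0.241 RPKM in medial and at 0.289, 0.715 and 0.397 in lateral. Hoxd8 was at 1.5, 1.93 and 1.52 RPKM in medial and at 2.27, 4.44 and 3.00 in lateral. Hoxd9 was at 0.291, 0 and 0.147 RPKM in medial and at 0.342, 0.952 and 0.555 in lateral. The groups did not overlap for any of the 4, where 20.7% of all genes did not overlap.

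The differences, lateral minus medial on the log2(RPKM + 0.1) scale, were 1.70 for Hoxd3 (SE 0.32, adjusted p = 0.0918), 1.66 for Hoxd9 (SE 0.58, adjusted p = 0.3004), 1.47 for Hoxd4 (SE 0.52, adjusted p = 0.304) and 0.89 for Hoxd8 (SE 0.27, adjusted p = 0.229), by limma. With a pseudocount of 0.01 Hoxd3, which could be tested only because of its lateral values, was called. The other 5 members tested, Hoxb3, Hoxb4, Hoxb9, Hoxc4 and Hoxc8, had unadjusted p-values between 0.294 and 0.940. The 3 medial libraries were of run G and the lateral ones of runs F and H, so within these libraries run and compartment cannot be told apart. When run was added as a covariate to a fit that took in every library, the Hoxd8 difference was −0.27 and its direction turned. In runs E to H 1 read on a transcript of 2000 bases was worth 0.130 to 0.222 RPKM. The Hoxd9 values stand for 2, 0 and 1 reads in medial and about 2, 6.01 and 3 in lateral. For Hoxd3 and Hoxd4 no exon length could be fitted, and the longest GENCODE transcript was used. On that length the lateral values stand for 3.49, 1.06 and 1.53 reads of Hoxd3 and 2.06, 5.5 and 2.62 of Hoxd4. The medial values of Hoxd4 stand for 1, 0 and 2. The rows of Hoxd3 (chr2:74550050-74586328) and Hoxd4 (chr2:74560035-74567216) overlap, so how reads were split between them is uncertain. Aldh1a2, the enzyme that makes retinoic acid, an inducer of Hox genes, was called in the same comparison, higher in lateral by 3.15 (SE 0.34, adjusted p = 0.0249). Sox10, a Schwann cell and crest factor, was also higher in lateral, by 2.43 (adjusted p = 0.0277). It was the 1 gene called of 8 nerve and Schwann cell markers. The differences of all 8 endothelial markers were above 0 (median 0.52), 5 of them with an unadjusted p under 0.05 and 0 called. The part of these genes in the Hoxd values was not tested.

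The other pairs of compartments gave no call. For posterior lateral against medial 0 of 6 members tested were called, where 0.00587% of 17043 genes were, and 0 had an unadjusted p under 0.05, where 3.14% of genes did. For anterior oral against nasal it was 0 of 22, where 0.00511% of 19568 genes were called, and 0 unadjusted, where 4.28% passed. For posterior oral against nasal it was 0 of 8, where 0.238% of 17655 genes were called, and 0 unadjusted, where 8.81% passed. Hoxd8 in posterior oral minus nasal had the smallest adjusted p of that comparison's members, 0.657, with a difference of 1.61 and values of 0.699 to 2.86 RPKM in oral and 0.116 to 1.12 in nasal. In the posterior lateral minus medial comparison Hoxd8 differed by 2.32 (adjusted p = 0.958), with 0.295 to 4.26 RPKM in lateral and 0 to 1.29 in medial.

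Hoxb3 (gene ID 15410, chr11:96184440-96209244), which patterns the hindbrain and the arches behind the second, owed its mean to 1 library. It was 13.04 RPKM in posterior medial 2, about 114 reads, and at most 0.646 RPKM in the other 24 libraries. That library held 87.3% of the summed Hoxb3 level, and 14 of the 25 libraries were at 0. Compartment means were 0.0273 ± 0.0473 RPKM in anterior medial, 0.0620 ± 0.0538 in anterior lateral, 0.225 ± 0.163 in anterior oral (SD, n = 3 each) and 0.193 ± 0.308 in anterior nasal (SD, n = 4). They were 4.35 ± 7.53 in posterior medial, 0.0453 ± 0.0784 in posterior lateral, 0 in all 3 libraries of posterior oral and 0.0148 ± 0.0256 in posterior nasal (SD, n = 3 each). The posterior minus anterior difference was −0.15 (SE 0.60, adjusted p = 0.937). It was −0.73 without posterior medial 2. That library also held 34.1 RPKM of Sox2, a factor of neural and epithelial progenitors, against at most 3.11 RPKM in any other, and its summed level of the hindbrain and spinal cord neural markers was 34.9 RPKM against 0.374 to 8.61 in the others. Nearly all of that sum was Sox2. The epithelial markers, among which Sox2 is not listed, summed to 116 RPKM in that library, the highest of the posterior ones. The library also had the fewest genes above 0, 12935, and 3 members above 0. Whether it held neural or epithelial cells beyond the others is not settled by these sums. The part of cell content or of the low number of genes detected in the Hoxb3 value was not tested.

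Hox proteins bind DNA together with TALE class homeodomain proteins, and most of their listed genes were above 0 in every library. Meis3 and Pbx4 were each above 0 in 24 libraries. All 11 listed TALE genes were in the table, and their summed level was 120 to 252 RPKM. The low end was posterior medial 2, and the next lowest library, anterior nasal 4, was at 201.5 RPKM. Meis2 averaged 51.2 RPKM (33.5 to 76.0 over the libraries). Pbx2 averaged 30.3 RPKM and Pbx4 1.71 RPKM. None of the 11 was called in any of the 5 comparisons between regions or compartments, and the median posterior minus anterior difference was −0.09.

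Polycomb proteins keep Hox clusters silent and trithorax proteins keep them active, and genes of both groups were expressed. Of 20 listed genes 18 were in the table, and their summed level was 315 to 471 RPKM. Ezh2, the methyltransferase of Polycomb complex 2, averaged 59.4 RPKM (31.9 to 78.2) and Phc1, of Polycomb complex 1, 36.6 RPKM (25.9 to 58.1). Mll1, the trithorax methyltransferase, averaged 33.5 RPKM. None of the 18 was called between posterior and anterior palate.

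Of 14 listed upstream regulators of Hox genes, the caudal factors Cdx1, Cdx2 and Cdx4, which open the trunk Hox genes, averaged 0.260, 0.0891 and 0.0748 RPKM. Gbx2 averaged 0.0165 RPKM. The retinoic acid receptors Rara and Rarg averaged 23.5 and 23.1 RPKM. Cyp26b1, which degrades retinoic acid, averaged 29.0 RPKM and was the 1 gene of the list called between posterior and anterior palate, lower in the posterior by 0.99 on the log2 scale (SE 0.27, adjusted p = 0.0446). Egr2, which acts on Hox genes in the hindbrain, averaged 1.04 RPKM.

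Markers of other cell types that laser captured palate could hold were present in every library. Of the 9 palate mesenchyme markers, Col1a1 had the highest mean (179 RPKM) and Prrx1, a limb and face mesenchyme factor, was the 1 gene called between posterior and anterior palate, lower in the posterior (−0.69, adjusted p = 0.0419). The 8 endothelial markers summed to 65.6 to 228 RPKM, led by Cdh5 at a mean of 52.8 and Pecam1 at 24.0. The 7 red cell markers summed to 318 to 970 RPKM, led by Hbb-y at 227 and Hbb-b1 at 160. The 8 myeloid markers summed to 39.3 to 132 RPKM, led by Lyz2 at 19.4 and C1qb at 19.3. The 8 skeletal muscle markers summed to 1.69 to 94.4 RPKM, led by Mylpf at 10.4 and Tnnt1 at 6.52. The 8 nerve and Schwann cell markers summed to 10.7 to 39.5 RPKM, led by Sox10 at 6.32 and Tubb3 at 5.57. None of the genes of these last 5 lists was called between posterior and anterior palate.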

How the data were processed

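The authors deposited 1 table of RPKM values for 25 libraries of laser captured, amplified RNA (NuGEN Ovation, Nextera, single-end reads of 50 bases). The column of anterior medial replicate 2 does not name its unit and was taken as RPKM like the others. Per the study's methods, duplicate and multiply aligned reads were dropped before GeneSpring computed the values, which lowers genes with close copies. The submitters' processing notes name TopHat and mm9. The run of each library was read from column names in the study's supplement. Here limma 3.58.1 (R 4.3.3) was fitted to log2(RPKM + 0.1) for genes above 0 in at least 3 compared libraries, with Benjamini-Hochberg adjustment over all genes tested and a call at an adjusted p under 0.05. Differences on this scale understate the change of low genes. Each pair of compartments was fitted on its own libraries, and scripts were tested on simulated data. Implied depth came from the steps between values, and read numbers cover counting error only.

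Members and gene lists were chosen with earlier results of these data known. Members averaging at least 0.5 RPKM or called in a comparison are given in every compartment. Of each list, the 2 genes with the highest mean and up to 2 called per direction between posterior and anterior palate are named, and others were named after their values were seen. Alternatives were pseudocounts of 1 and 0.01, no filter, the study's minimum, quantile normalization, median centring, a replicate block, run as a covariate, a fit of all libraries and each library left out. Fits by run (without A to D, without D, C alone, G alone) were added after the data were seen. Some genes that this rule would name are not reported here.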

Additional observations from a re-analysis of the deposited data

Results flagged for a closer look

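In anterior nasal, the 1 compartment with 4 libraries, Hoxb9 was at 1.38, 0.463, 0.492 and 0.364 RPKM. The highest value, in replicate 1, lay farther from the others than a gap test at the 95% level allows (gap over range 0.874). About 1 group in 20 passes such a test by chance, and 10 quantities were looked at. Replicate 1 had about 8 Hoxb9 reads, was of run D and had 29 members above 0.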

How the results depend on the processing

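Between posterior and anterior palate 1 member was called, and 0 with a pseudocount of 0.01, after quantile normalization, without runs A to D, without run D, or in run C or run G alone, and 0 to 1 when 1 library was left out. Of all genes, 491 were called there, 392 to 660 with 1 library left out, 213 with run as a covariate, 311 without runs A to D, 0 in run C and 11 in run G. Over the 8 compartments 0 members were called, 1 with run as a covariate, 1 without runs A to D, and 0 to 2 with 1 library left out; of all genes 659, 176, 327 and 483 to 881 were called. For anterior lateral minus medial 1 member, Hoxd3, was called with a pseudocount of 0.01; of all genes 209 were called, 338 with a pseudocount of 1, 53 in the fit of all libraries, 0 with run as a covariate and 3 to 92 with 1 library left out. Of 1, 1 and 42 genes called in the other pairs, in the order given above, 41, 9 and 66 were called in the fit of all libraries. The cause was not tested.

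Directions turned for Hoxb3 and Hoxc8, neither of which was called in any comparison, and for Hoxd8 between anterior lateral and medial, where it was not called. Between posterior and anterior palate Hoxb3 was at 0.18 with a pseudocount of 1, 0.027 after quantile normalization, 0.43 without runs A to D and −0.73 to 0.013 with 1 library left out. Hoxc8 was at 0.37 without runs A to D, 0.047 without run D and 0.43 in run G. For anterior lateral minus medial with run as a covariate Hoxb3 was at −0.14, Hoxc8 at 0.66 and Hoxd8 at −0.27, and Hoxc8 lay between −0.28 and 0.19 with 1 library left out. For anterior oral minus nasal it lay between −1.20 and 1.17. For posterior oral minus nasal Hoxc8 was at −0.10 after quantile normalization, −0.078 with run as a covariate and −0.16 to 0.26 with 1 library left out.

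Replicate numbers did not pair the libraries (median correlation 0.034 of same-numbered libraries). With the replicate number as a block Hoxd8 was at −2.14 (limma adjusted p = 0.0353) and Hoxb3 at 0.013 (the block takes up anterior nasal 4, the 1 library of its number), and 1 member was called between posterior and anterior palate. The study's minimum left no member between posterior and anterior palate and could not be run there.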
